A study of Mus musculus with 8 samples.

Results

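ATF4 overexpression in C2C12 myoblasts was profiled by small RNA sequencing, and all 605 miRNAs listed for this pair of libraries are described here. C2C12 is a mouse skeletal myoblast line that is grown in rich medium and fuses into myotubes when serum is lowered. The pair is 2 of the 8 samples of the series. The ATF4 library came from C2C12 cells transduced with a lentiviral vector that carried the ATF4 coding sequence behind an EF1α promoter, and the vector library came from C2C12 cells with the empty vector. Both lines were selected with puromycin and were kept in growth medium, without a change to differentiation medium. The 4 other C2C12 libraries, used only for comparison, came from cells that expressed a hairpin RNA, either a negative control (shNC) or one that targets Perk (shPerk), before differentiation (day 0) and after 3 days of it (day 3). They too were stable lentiviral lines under puromycin. The ATF4 and vector cells were sampled below full confluence. Cells bound for differentiation were grown to full confluence first, and the confluence of the day 0 libraries is not given. Each condition has 1 library, so no difference below has a replicate check within these libraries, and no p-value is given. Differences between these cell lines cannot be told apart from an effect of ATF4. mRNA and protein were not measured by these libraries, and the ATF4 overexpression itself was therefore not checked in them.

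PERK is a sensor of unfolded protein in the endoplasmic reticulum. When active, it phosphorylates eIF2α, which lowers general translation while the mRNA of the transcription factor ATF4 is translated more. ATF4 switches on genes of amino acid metabolism and of the stress response. In muscle, a small group of miRNAs (miR-1a, miR-133a, miR-133b and miR-206) accumulates as myoblasts leave the cell cycle and fuse, under the control of MyoD and MEF2. The comparison of the ATF4 with the vector library asks which miRNAs differ when ATF4 is supplied from a transgene to cells kept in growth medium.

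The values are RPM, in which the miRNA reads of a library sum to about the same total. A miRNA is called higher or lower here when its log2 change, ATF4 against vector, is beyond 1 (a 2-fold difference) after TMM scaling, with values listed at 0 set to 1 RPM. The log2 change is a difference between libraries, and RPM is a level. Names carry no species prefix. A miRNA binds its targets mainly through its seed, bases 2 to 8, which is shown in capitals below. Of the 605 miRNAs, 493 (81.5%) had a mature sequence in the RefSeq table of build GRCm38.p6, written 5′ to 3′.

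The first set is shown because miR-148a-3p, the most abundant miRNA called higher, shares its seed with 2 miRNAs that were not called.
miR-148a-3p: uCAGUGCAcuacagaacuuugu
miR-148b-3p: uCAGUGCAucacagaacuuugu
miR-152-3p: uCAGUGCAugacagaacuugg

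The second set is shown because miR-195a-5p and miR-497a-5p were called higher, while miRNAs with the same seed from other genes were not.
miR-195a-5p: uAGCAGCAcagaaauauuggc
miR-497a-5p: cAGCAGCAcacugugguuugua
miR-322-5p: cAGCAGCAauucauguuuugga
miR-16-5p: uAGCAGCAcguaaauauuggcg
miR-15b-5p: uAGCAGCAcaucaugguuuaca

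A further set holds the miR-344 family, whose listed members were all called higher although their seeds differ, and 4 other miRNAs called higher.
miR-344-3p: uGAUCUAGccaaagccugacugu
miR-344d-3p: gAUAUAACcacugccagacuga
miR-344b-3p: cAUUUAGCcaaagccugacugu
miR-218-5p: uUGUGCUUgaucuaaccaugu
miR-146a-5p: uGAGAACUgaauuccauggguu
miR-9-5p: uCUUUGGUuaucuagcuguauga
miR-708-5p: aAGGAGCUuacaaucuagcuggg

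The last set holds miRNAs that were lower in the ATF4 library, with relatives from the same transcripts or with the same seed, and the muscle miRNA miR-206-3p.
miR-92a-3p: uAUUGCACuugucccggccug
miR-25-3p: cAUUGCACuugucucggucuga
miR-17-5p: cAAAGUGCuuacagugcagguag
miR-20a-5p: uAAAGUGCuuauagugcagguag
miR-183-5p: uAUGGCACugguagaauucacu
miR-182-5p: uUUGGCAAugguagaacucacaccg
miR-139-5p: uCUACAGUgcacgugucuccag
miR-675-3p: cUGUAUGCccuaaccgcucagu
miR-206-3p: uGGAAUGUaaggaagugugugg

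Of the 605 miRNAs, 142 (23.5%) were past the fold limit, 88 higher (14.5%) and 54 lower (8.93%) in the ATF4 library. The median log2 change of all miRNAs was -0.004 with an SD of 0.96 across miRNAs. The balance of directions rested on the scaling: upper-quartile factors moved the median of all miRNAs to -0.38 and called 53 higher and 124 lower. The higher share of the calls was 62.0% with TMM and 29.9% with upper-quartile factors. A log2 change given below is relative to the TMM scale. In bulk RNA, fewer cells that express a miRNA and less of it per cell cannot be told apart. The summed share of the most abundant miRNAs was nearly the same in both libraries. The 10 most abundant miRNAs held 56.0% of the RPM with the vector and 56.1% with ATF4. miR-21a-5p, the most abundant, was at 210282 RPM with the vector and 196806 RPM with ATF4. Single miRNAs among the 10 shifted both ways within the limit. miR-125b-5p was at 42986 RPM with the vector and 28359 RPM with ATF4. miR-199a-3p and miR-199b-3p, whose deposited values are identical, were at 31107 and 44693 RPM. The let-7 family and miR-98, which restrain proliferation in many cell types, summed to 207080 and 212157 RPM. Of their 23 listed miRNAs, 0 were called, beside 23.5% of all miRNAs. Values under 1 RPM are listed at 0, which holds for 23 miRNAs with the vector and 42 with ATF4.

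**Figure D1:**
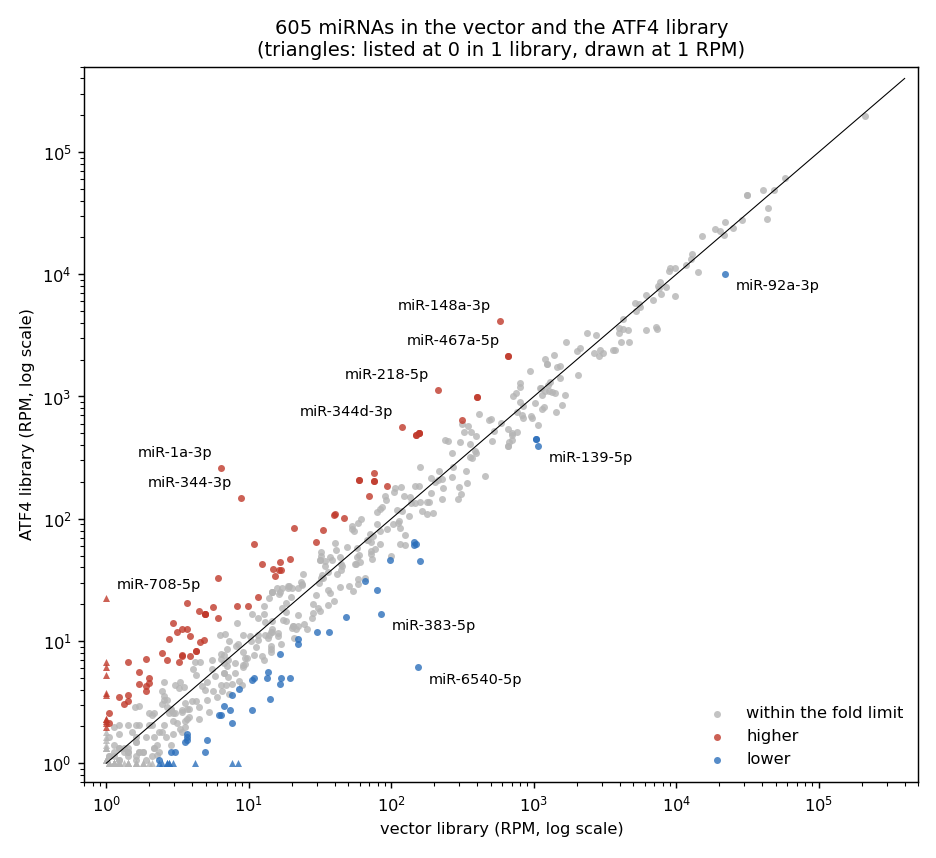
Level of each of the 605 miRNAs in the vector library (x axis, RPM, log scale) and the ATF4 library (y axis, RPM, log scale), with the line of equal RPM. Red points are the 88 miRNAs called higher, blue points the 54 called lower, and triangles are listed at 0 in 1 library and drawn at 1 RPM. Calls are rare among the most abundant miRNAs, and among the named points miR-1a-3p lies farthest above the line and miR-6540-5p farthest below it.

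A second library of control cells before differentiation, shNC at day 0, gave a measure of how far control libraries differed. Its confluence is not given, so cell line and confluence cannot be told apart in this measure. The vector library was set against it with the same limit, across tables that were normalized separately. Of 597 miRNAs, 166 (27.8%) were past the limit, a larger share than for ATF4 against vector. Both pairs were split by the mean level of the vector and ATF4 libraries. Under 10 RPM, 28.8% of 250 miRNAs were called in the ATF4 pair and 29.2% of 243 in the control pair. From 10 to 100 RPM the shares were 24.7% and 32.7%, and from 100 to 1000 RPM 23.1% and 22.2%. At 1000 RPM or more, 4 of 81 miRNAs (4.94%) were called in the ATF4 pair and 17 of 81 (21.0%) in the control pair. The overall share past the limit was thus no larger with ATF4 than between the control lines.

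The ATF4 library was then set against shNC day 0, a comparison chosen after the data were seen. It called 156 of 581 miRNAs (26.9%), 73 higher (12.6%) and 83 lower (14.3%). It shares the ATF4 library with the comparison against the vector, so the overlap of their calls is not given as a result, and the values of both are set side by side. The miRNAs past the limit against both controls are named as such below, as a description: the level in the vector library alone does not set their call, but that in the ATF4 library enters both.

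**Figure D2:**
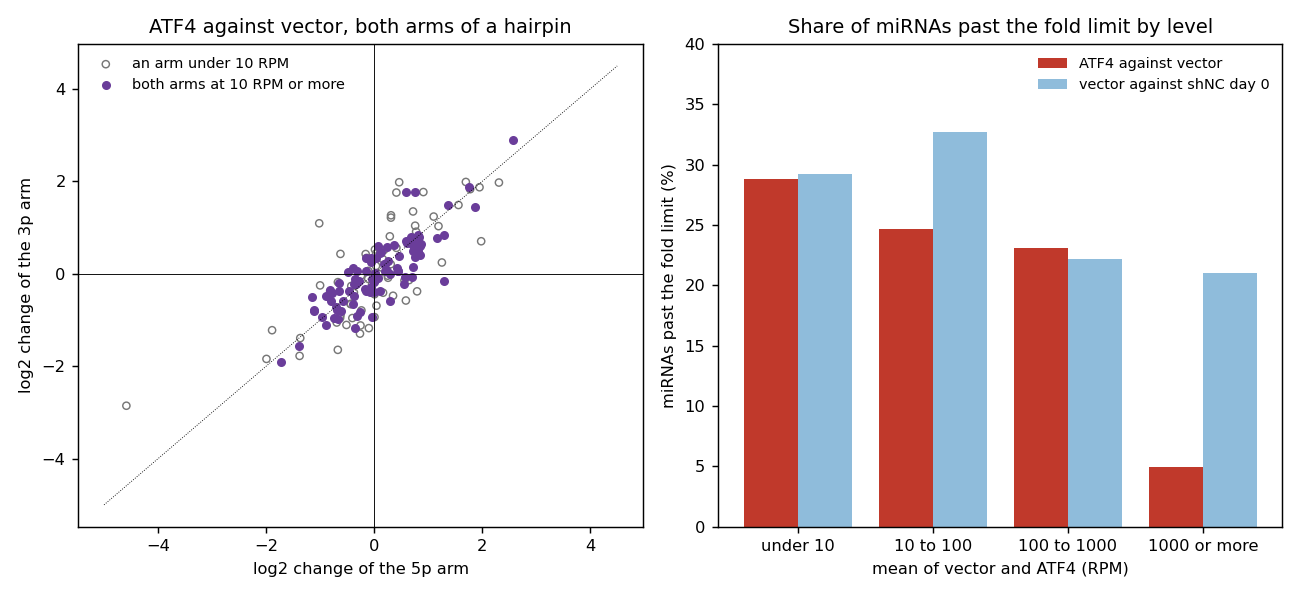
Left, log2 change with ATF4 of the 5p arm (x axis) and the 3p arm (y axis) of 163 hairpins, filled where both arms had a mean of at least 10 RPM. Right, percent of miRNAs past the fold limit by mean level (RPM) for ATF4 against vector (red) and vector against shNC day 0 (blue): the bars are alike under 10 RPM, 28.8% and 29.2%, and differ most at 1000 RPM or more, 4.94% against 21.0%.

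Among the myogenic miRNAs, miR-1a-3p differed most. It stood at 6.42 RPM with the vector and 259 RPM with ATF4, a log2 change of 5.40, the largest of all miRNAs named here. The shNC day 0 library held 219.7 CPM of it (CPM, the like scale from raw counts). The low value of miR-1a-3p thus belonged to the vector library among the 3 libraries of undifferentiated cells without the Perk hairpin. ATF4 against shNC day 0 gave a log2 change of 0.14 for it. In shNC cells at day 3 it reached 17292 CPM, far above the ATF4 library. The CPM and RPM tables were normalized separately.

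miR-133a-3p, which is made from the same transcripts as miR-1a-3p, was at 69.4 RPM with the vector and 154 RPM with ATF4, a log2 change of 1.21. With upper-quartile factors the change was 0.84, within the limit. It stood at 419.5 CPM in shNC cells at day 0, and against that library the ATF4 library was lower, with a log2 change of -1.55. The direction of miR-133a-3p therefore depended on which control was used. Among the genes that encode both miRNAs, Mir1a-1 and Mir133a-2 are on the plus strand of chromosome 2 (GRCm38), spanning 180389048 to 180389124 and 180398379 to 180398482.

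The skeletal muscle locus of miR-206 and miR-133b was not past the limit. miR-206-3p, which represses Pax7, was at 2351 RPM with the vector and 3320 RPM with ATF4 (log2 change 0.56). miR-133b-3p was at 40.8 and 55.9 RPM (0.52). All 4 listed arms of this locus had a log2 change above 0, with a median of 0.46, on a scale where the calls begin at 1. In shNC cells at day 0, miR-206-3p was at 18280 CPM and miR-133b-3p at 246 CPM, above both libraries of the ATF4 experiment.

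miR-128-3p, which is enriched in brain and muscle, was at 2927 RPM with the vector and 2395 RPM with ATF4, a log2 change of -0.23. Of the 8 listed myogenesis-associated miRNAs, 2 were higher and 0 lower, beside 14.5% higher among all miRNAs, with a median of 0.46 (0.09 with upper-quartile factors). The list holds miRNAs that the study names, in part after seeing libraries of this series, so its direction is not independent evidence. Their summed level was 5405 RPM with the vector, 6195 RPM with ATF4, 25525 CPM in shNC cells at day 0 and 99449 CPM at day 3. Both libraries of the ATF4 experiment thus held less of these miRNAs than the other control line, and against shNC day 0 the ATF4 library had 6 of the 8 lower, beside 14.3% of all miRNAs, and 0 higher.

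The other muscle miRNAs did not go the same way. miR-486a-5p and miR-486b-5p, whose deposited values are identical and which lie in the muscle ankyrin gene Ank1, were at 1028 RPM with the vector and 452 RPM with ATF4 (log2 change -1.12), and they were lower against both controls. Their opposite arms had log2 changes of -0.80 and -0.78. miR-499-5p, from an intron of the myosin gene Myh7b, is listed at 0 for the vector and reached 3.62 RPM with ATF4. It stood at 5.4 CPM in shNC cells at day 0 and 59.2 CPM at day 3. The miR-378 family had 0 of 5 called, beside 23.5% of all miRNAs, and a median log2 change of -0.65, with all 5 below 0.

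The X-linked cluster of miR-322, miR-503, miR-351, miR-542 and miR-450, known to restrain Cdc25a as myoblasts leave the cell cycle, had 12 listed miRNAs, all above 0. Of these, 3 were called higher, beside 14.5% of all miRNAs, and the median was 0.78 (0.40 with upper-quartile factors). miR-542-3p was at 33.4 and 81.4 RPM (log2 change 1.35) and miR-450b-5p at 46.9 and 101 RPM (1.17). The abundant members were within the limit, with miR-351-5p at 795 and 908 RPM and miR-322-3p at 347 and 575 RPM. Against shNC day 0 the ATF4 library was lower instead, with 7 of the 12 called lower, beside 14.3% of all miRNAs, and a median of -1.09. The coordinated difference within this cluster thus changed direction with the control.

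miR-195a and miR-497a, which repress cyclins and share a transcript on chromosome 11 (Mir497 at 70234717 to 70234800, Mir195a at 70235042 to 70235135, plus strand, in no other annotated gene of that strand), were higher against both controls. miR-195a-5p was at 12.3 RPM with the vector and 43.0 RPM with ATF4 (log2 change 1.87). miR-497a-5p was at 16.4 and 44.1 RPM (1.49), and miR-195a-3p at 14.8 and 38.7 RPM (1.45). They share the seed AGCAGCA with far more abundant miRNAs that differed little. miR-16-5p was at 1460.4 and 1744 RPM (0.32), miR-15b-5p at 389 and 357 RPM (-0.06) and miR-322-5p at 90.9 and 155 RPM (0.83). The 6 listed miRNAs with this seed summed to 1991 RPM with the vector and 2370 RPM with ATF4, a log2 change of 0.32 for the seed as a whole.

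A like pattern held for the seed CAGUGCA of miR-148a-3p, a family known to target the DNA methyltransferase Dnmt1. miR-148a-3p was at 580.4 RPM with the vector and 4132 RPM with ATF4, a log2 change of 2.90, and it was at 577 CPM in shNC cells at day 0. The vector and shNC day 0 libraries were thus nearly level and the ATF4 library stood apart from both. Its partner arm miR-148a-5p was at 10.96 and 62.3 RPM (2.57) and was also higher against both controls. miR-148b-3p was at 2877 and 2142 RPM (-0.36) and miR-152-3p at 794 and 1188 RPM (0.64). The 3 miRNAs with this seed summed to 4252 and 7462 RPM, a log2 change of 0.88, and miR-148a-3p was the most abundant of them with ATF4 but not with the vector. Mir148a lies on chromosome 6 at 51269812 to 51269910 on the minus strand, in no other annotated gene of that strand.

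miR-218-5p, which is encoded in introns of the axon guidance genes Slit2 and Slit3, was at 213 RPM with the vector and 1126 RPM with ATF4 (log2 change 2.47). It was at 221 CPM in shNC cells at day 0 and was higher against both controls. The mature sequence does not tell apart its genes, Mir218-1 on chromosome 5 at 48223942 to 48224051 and Mir218-2 on chromosome 11 at 35616816 to 35616925. miR-146a-5p, induced by NF-κB and known to dampen it through Traf6 and Irak1, was at 6.05 and 32.7 RPM (2.50), and at 5.6 CPM in shNC cells at day 0. miR-146b-5p, which has the same seed, was at 312 and 641 RPM (1.10). Both were higher against both controls.

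The miR-344 family gave the largest median of the lists of more than 1 miRNA. All 4 listed miRNAs were higher, beside 14.5% of all miRNAs, with a median log2 change of 2.48 beside -0.004 for all. miR-344-3p was at 8.88 RPM with the vector, 148 RPM with ATF4 and 24.7 CPM in shNC cells at day 0 (log2 change 4.13 against the vector and 2.48 against shNC day 0). miR-344d-3p was at 119.55, 563 and 73.5 in the same order (2.30 against the vector). miR-344b-3p was at 4.44 and 17.6 RPM (2.05), and miR-344d-3-5p is listed at 0 for the vector and reached 6.08 RPM with ATF4. Of the 4, 3 were past the limit against both controls, and miR-344b-3p had a log2 change of 0.998 against shNC day 0, just under it. Their genes lie together on the minus strand of chromosome 7, from Mir344d-1 at 61683124 to Mir344-2, which ends at 61940106, in part in introns of the noncoding transcripts A230057D06Rik and A330076H08Rik.

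The largest group of calls was that of miR-297, miR-466, miR-467 and miR-669, repeat-derived families known from placenta. Of their 81 annotated hairpin genes, 71 lie within the imprinted gene Sfmbt2 on its own strand (chromosome 2, 10370510 to 10595253). Of 47 listed miRNAs, 37 were higher and 1 was lower, beside 14.5% higher and 8.93% lower among all miRNAs, and the median log2 change was 1.49 (1.11 with upper-quartile factors). They made up 37 of the 88 miRNAs called higher. Names of this group share reads: the 47 names hold 35 distinct pairs of values, 27 of which were past the limit upwards, so the count of names overstates the count of separate measurements.

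Their summed level was 3451 RPM with the vector and 10163 RPM with ATF4, and 3908 CPM in shNC cells at day 0. miR-467a-5p and miR-467b-5p, with identical values, were at 663 and 2156 RPM (log2 change 1.76). miR-669a-5p and miR-669p-5p, also identical, were at 401 and 995 RPM (1.38), although with upper-quartile factors they were just within the limit, at 0.997. miR-466a-3p was at 149 and 483 RPM (1.76). Against shNC day 0, 20 of the 47 were higher, beside 12.6% of all miRNAs, and 0 lower. The exception to the direction was miR-466i-5p, which was lower, at 65.7 and 31.1 RPM.

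A further group of low abundance was the X-linked testis cluster of the miR-465, miR-743 and miR-881 kind. Of 14 listed miRNAs, 8 were higher and 0 lower with ATF4, beside 14.5% higher among all miRNAs, and the median was 1.18 (0.80 with upper-quartile factors). The levels were low throughout, with a sum of 76.9 RPM with the vector and 154 RPM with ATF4. miR-881-3p was at 5.58 and 19.1 RPM (log2 change 1.84) and at 19.7 CPM in shNC cells at day 0. The sum in shNC cells at day 0 was 139.6 CPM. Against that library 0 of the 14 were past the limit, beside 26.9% of all miRNAs.

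**Figure D3:**
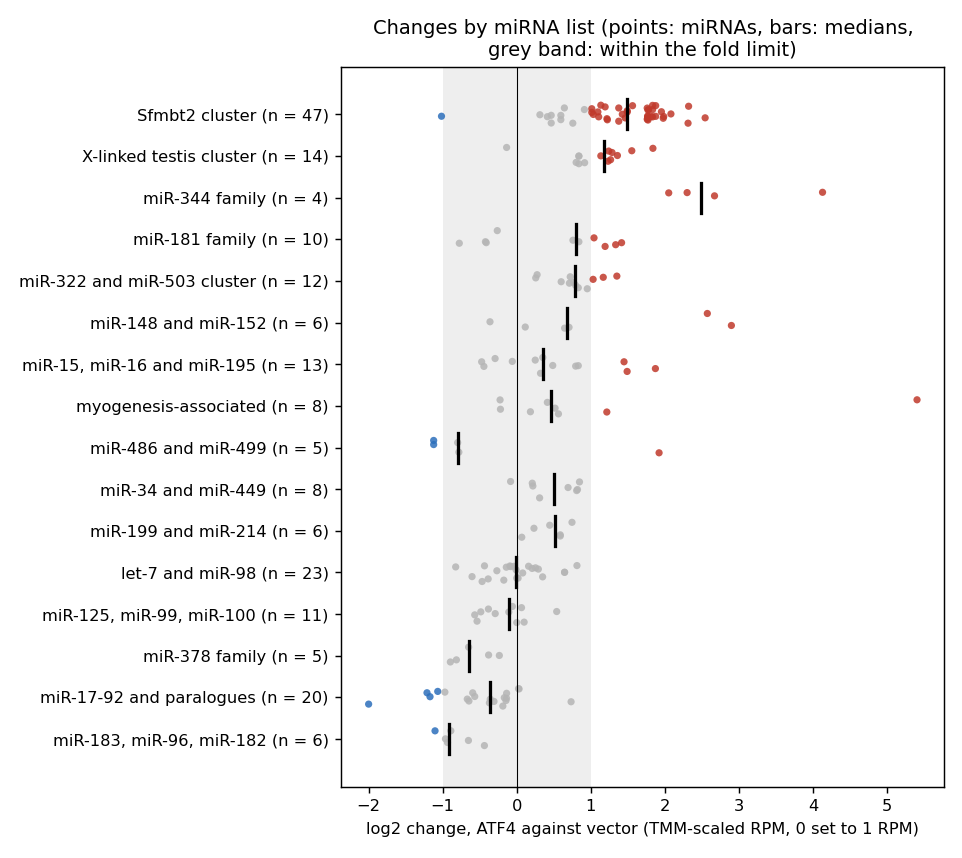
Log2 change, ATF4 against vector, of the miRNAs of 16 lists (x axis, TMM-scaled RPM), with n the listed miRNAs and black bars the medians. Red and blue points are past the fold limit and the grey band is within it; miR-344 (median 2.48) and the Sfmbt2 cluster (median 1.49) lie to the right, and miR-183, miR-96 and miR-182 (median -0.91) to the left.

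miR-708-5p was the only miRNA listed at 0 in 1 library and at 10 RPM or more in the other: the vector value is 0 and the ATF4 value 22.3 RPM. It lies in an intron of Tenm4 (Mir708, chromosome 7, 96249424 to 96249532, plus strand) and is known to be induced with its host gene by CHOP, a factor downstream of ATF4. It was at 1.0 CPM in shNC cells at day 0 and 5.3 CPM at day 3, and was higher against both controls. Its seed, AGGAGCU, is also that of miR-28a-5p. Other miRNAs linked to the unfolded protein response were within the limit: miR-455-5p was at 37.4 and 48.9 RPM and miR-455-3p at 32.3 and 32.5 RPM.

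Among the miRNAs that were lower with ATF4, miR-6540-5p differed most. It was at 153 RPM with the vector and 6.08 RPM with ATF4, a log2 change of -4.59, and at 131 CPM in shNC cells at day 0. Both control libraries were thus high and the ATF4 library was low. Its partner arm miR-6540-3p was at 7.56 RPM with the vector and listed at 0 with ATF4. Mir6540 (chromosome 16, 42303362 to 42303469, minus strand) sits in an intron of Gap43, a gene of growing axons.

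miR-383-5p, from an intron of the sarcoglycan gene Sgcz (chromosome 8, 38252133 to 38252202), was at 85.2 RPM with the vector, 16.7 RPM with ATF4 and 70.0 CPM in shNC cells at day 0 (log2 change -2.29 against the vector). miR-1933-3p, from an intron of Ugp2, was at 16.6 RPM, 4.44 RPM and 16.3 CPM in the same order (-1.84). miR-139-5p, from an intron of the phosphodiesterase gene Pde2a, was at 1076 RPM, 393 RPM and 760.2 CPM (-1.39), and its partner arm miR-139-3p at 36.5 RPM, 11.8 RPM and 22.2 CPM (-1.56). All 4 were lower against both controls. miR-675, which is cut from an exon of the imprinted growth regulator H19 (Mir675, chromosome 7, 142577064 to 142577147), was also lower against both: miR-675-3p was at 19.4 and 4.93 RPM (-1.91) and miR-675-5p at 16.9 and 4.93 RPM (-1.72). H19 itself was not measured by these libraries.

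The proliferation clusters miR-17-92, miR-106b-25 and miR-106a-363 had 0 of 20 listed miRNAs higher and 4 lower, beside 8.93% lower among all miRNAs, with a median of -0.36. miR-92a-3p was the most abundant of them in both libraries, with 22082 RPM with the vector and 10087 RPM with ATF4 (log2 change -1.07). miR-92a-1-5p was at 149 and 61.7 RPM (-1.21), miR-18a-3p at 144.5 and 61.4 RPM (-1.17) and miR-19b-1-5p at 14.1 and 3.37 RPM (-1.999). miR-17-5p, at 4670.4 and 2812 RPM, and miR-20a-5p, at 3727 and 2407 RPM, were within the limit at -0.67 and -0.57. The summed level of the 3 clusters was 39470 RPM with the vector and 22785 RPM with ATF4, but 17467 CPM in shNC cells at day 0. The vector library was thus the highest of the 3, and against shNC day 0 miR-92a-3p was higher with ATF4 (0.63) and the list had a median of 0.07. The genes of miR-17-92 are exons of Mir17hg on chromosome 14, from Mir17 at 115043671 to Mir92-1, which ends at 115044506. Of the 11 mature miRNAs of this transcript in the annotation, 9 were below 0 and 2 above.

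The polycistron of miR-183, miR-96 and miR-182, known from sensory organs, was lower as a whole in level but not by calls. All 6 arms were below 0, with 1 of 6 called lower, beside 8.93% of all miRNAs, and a median of -0.91 (-1.29 with upper-quartile factors). miR-183-5p was at 7275 and 3571 RPM (log2 change -0.96) and miR-182-5p at 7217 and 3726 RPM (-0.89), each just within the limit. The shNC day 0 library held 8566 and 8964 CPM of them, so the ATF4 library was the lowest of the 3. Against shNC day 0, 3 of the 6 were lower, beside 14.3% of all miRNAs. miR-122-5p, the hepatocyte miRNA, was at 79.7 and 26.1 RPM (-1.54) but at 10.1 CPM in shNC cells at day 0, and its direction turned with the control (1.28).

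**Figure D4:**
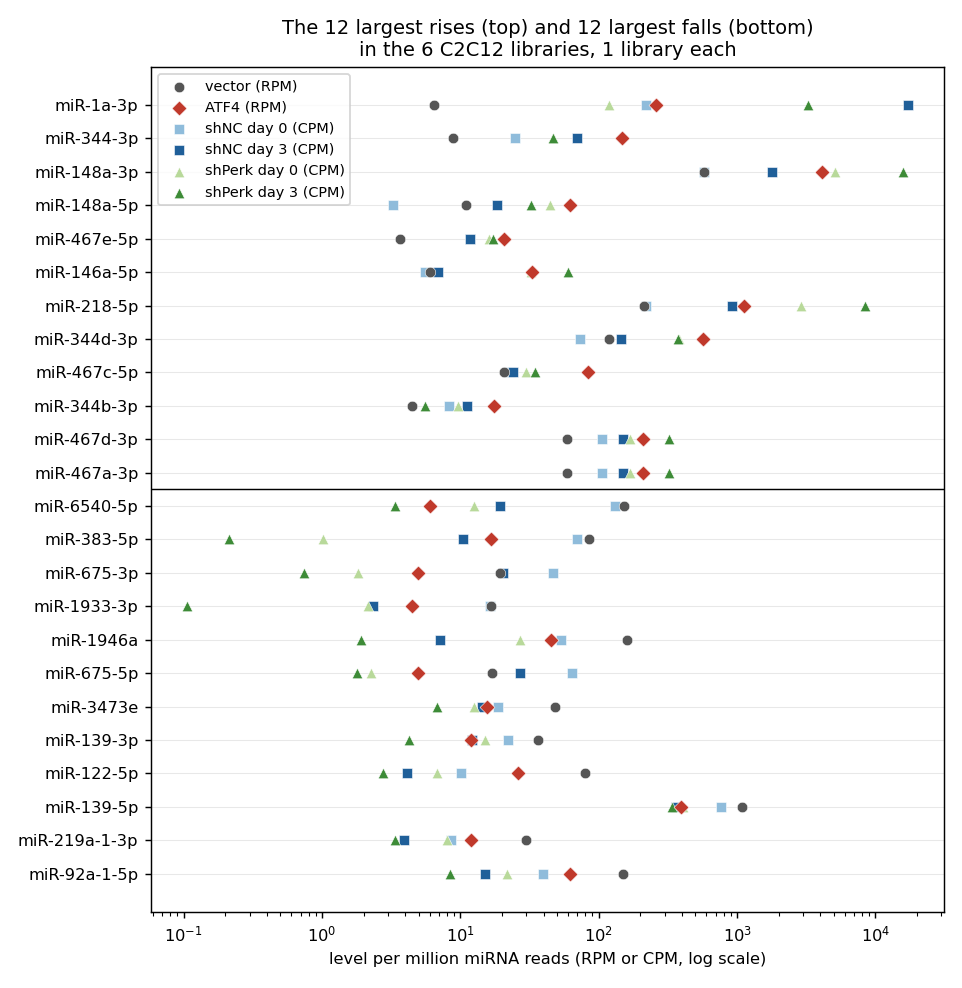
Level of the 12 largest rises and the 12 largest falls with ATF4 (mean of at least 10 RPM, above 0 in both libraries) in the 6 C2C12 libraries, on a log scale in RPM (vector, ATF4) or CPM (hairpin libraries), 1 point a library. For miR-148a-3p, miR-218-5p and miR-6540-5p the vector and shNC day 0 points lie together and the ATF4 point lies apart, while for miR-1a-3p the vector point, at 6.42 RPM, lies apart from the rest.

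Several other families held no call in either direction, beside 23.5% of all miRNAs past the limit. The miR-30 family had 0 of 11 called (median 0.06), miR-125, miR-99 and miR-100 had 0 of 11 (-0.11), and miR-221 and miR-222, which keep myoblasts proliferating through p27, had 0 of 4 (0.20). miR-199 and miR-214 had 0 of 6 called with all 6 above 0 (0.52). miR-34, a target of p53, had 0 of 8 called together with miR-449 (0.50). The sign of the medians of miR-30 and of miR-221 with miR-222 turned with upper-quartile factors, to -0.32 and -0.18.

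The miR-181 family, expressed in differentiating myoblasts, had 4 of 10 called higher, beside 14.5% of all miRNAs, and a median of 0.80. The calls were all 3p arms, the less abundant ones of their hairpins, such as miR-181a-1-3p at 29.5 and 64.4 RPM (log2 change 1.19, 0.81 with upper-quartile factors). The 5p arms were within the limit and went both ways, with miR-181b-5p at 941 and 1609 RPM (0.84) and miR-181a-5p at 799 and 1292 RPM (0.76), but miR-181d-5p at 707 and 505 RPM (-0.42) and miR-181c-5p at 24.6 and 13.7 RPM (-0.78). In all, 4 of the 10 were below 0. miR-101a-3p, a regulator of Ezh2, was at 39.6 and 107 RPM, 2.71 times as high, but at 349 CPM in shNC cells at day 0, and was lower with ATF4 against that library (-1.80). miR-26 and miR-101 had 1 of 7 called higher and miR-29 had 1 of 7, the low-abundance arm miR-29a-5p, shares close to the 14.5% of all miRNAs. The miRNAs of the Hox clusters had 1 of 8 called, beside 8.93% lower among all miRNAs, and this was miR-10b-5p, at 7.66 and 3.62 RPM. Of the large imprinted Dlk1-Dio3 region, 3 miRNAs are listed, all at 0 with ATF4 and at most 2.74 RPM with the vector.

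The myoblast markers miR-206-3p, miR-133a-3p, miR-133b-3p and miR-1a-3p were present in both libraries, miR-1a-3p at the level given above. The libraries were also checked for miRNAs of other cell types. miR-200c-3p was the only listed miRNA of the epithelial miR-200 family, at 3.02 and 4.36 RPM, and miR-122-5p the only hepatocyte marker. No miRNA of the embryonic stem cell clusters miR-290 and miR-302 is listed. The 8 listed blood markers summed to 691 and 688 RPM, mostly miR-155-5p at 587 and 604 RPM, and 0 were higher and 2 lower, beside 8.93% lower among all miRNAs (miR-142a-3p, at 7.66 and 2.14 RPM, and miR-142a-5p, at 7.37 and 2.71 RPM). The 3 listed neuronal markers summed to 82.6 and 252 RPM, nearly all miR-9-5p at 76.0 and 236 RPM (log2 change 1.70), and miR-124 and miR-137 are not listed. miR-9-5p was at 173 CPM in shNC cells at day 0, so that its log2 change against that library was 0.35. The endothelial marker miR-126a-3p was at 49.0 and 58.4 RPM. miR-143 and miR-145a of smooth muscle and fibroblasts summed to 23649 and 28685 RPM, with 0 of 4 called, beside 23.5% of all miRNAs. The part of other cell types in the results was not tested.

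Both arms of a hairpin come from 1 transcript, and the choice of members did not use their pairing. For 163 hairpins both arms were listed, and in 128 of them (78.5%) both arms had the same sign. The Pearson correlation of the log2 changes across these hairpins was 0.80 and the Spearman correlation 0.78. The arms share the library and its scaling. Where both arms had a mean of at least 10 RPM, 77 of 93 hairpins (82.8%) had the same sign and the Pearson correlation was 0.85. Of the 44 hairpins with an arm past the limit, 18 had both arms past it, and 1 had its arms past it in opposite directions.

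Hairpins at most 10000 bases apart on the same strand formed 38 clusters, and in 19 of them every mature miRNA lay on the same side of 0. Only miRNAs with a mature sequence in the RefSeq table entered. The miR-466, miR-467 and miR-669 families and miR-1a with miR-133a are therefore absent. The cluster of Mir344d-1 and Mir344d-2 holds 1 mature miRNA, so it lies on the same side by definition. A mature miRNA made from several genes, such as miR-92a-3p, counts in each of its clusters. Of the 35 clusters with at least 3 mature miRNAs, 17 did so. The clusters of miR-195a with miR-497a and of miR-181a-1 with miR-181b-1 lay above 0, and that of miR-183, miR-96 and miR-182 below. In miR-23a, miR-27a and miR-24-2 on chromosome 8, 5 of 6 were below 0 (median -0.50), while in their copy miR-23b, miR-27b and miR-24-1 on chromosome 13, 4 of 5 were above 0 (median 0.68).

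The ATF4 changes were set beside 3 comparisons of the hairpin libraries, none of which shares a library with the ATF4 pair. Names with identical values are each counted in these comparisons, so the counts overstate the separate measurements. The first asks whether ATF4 moved miRNAs as differentiation did. From day 0 to day 3 in shNC cells, 137 of 593 miRNAs (23.1%) were past the limit, 82 higher (13.8%) and 55 lower (9.27%). Of the 87 miRNAs higher with ATF4 that had values, 27 (31.0%) were higher at day 3 and 0 were lower. Of the 51 lower with ATF4, 14 (27.5%) were lower at day 3 and 1 was higher. Across 557 miRNAs the Pearson correlation was 0.55, and across the 355 with a mean of at least 10 RPM it was 0.64.

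The 27 miRNAs that were higher in both included miR-1a-3p, miR-133a-3p, miR-148a-3p, miR-218-5p, miR-344-3p, miR-195a-5p and miR-708-5p. The sizes differed. miR-1a-3p had a log2 change of 5.40 with ATF4 and 6.66 in differentiation, miR-133a-3p of 1.21 and 3.32, and miR-206-3p of 0.56 and 2.23. miR-344-3p had the larger change with ATF4, at 4.13 against 1.86. Among those lower in both, miR-6540-5p had -4.59 and -2.40, miR-383-5p -2.29 and -2.39, and miR-1933-3p -1.84 and -2.44.

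The hairpin against Perk is meant to lower the kinase upstream of ATF4, and the other comparisons set its changes beside those of ATF4. At day 0, in growth medium as the ATF4 pair, 189 of 602 miRNAs (31.4%) were past the limit in shPerk against shNC cells, 95 higher (15.8%) and 94 lower (15.6%). At day 3 the count was 220 of 575 (38.3%), with 108 higher (18.8%) and 112 lower (19.5%). The directions were more often shared with ATF4 than opposed to it. Of the 88 miRNAs higher with ATF4, 37 (42.0%) were higher in shPerk cells at day 0 and 3 (3.41%) were lower. Of the 87 with values at day 3, 42 (48.3%) were higher and 5 (5.75%) lower.

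The miRNAs lower with ATF4 behaved alike, with 17 of 51 (33.3%) lower and 3 (5.88%) higher in shPerk cells at day 0, and 18 of 42 (42.9%) lower and 4 (9.52%) higher at day 3. Across 560 miRNAs the Pearson correlation of the ATF4 change with that of shPerk cells was 0.44 at day 0, and across 529 miRNAs it was 0.37 at day 3. The 3 hairpin comparisons share shNC libraries among themselves, and their values are given side by side only.

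Among 523 miRNAs with values in all 4 comparisons, 86 were higher with ATF4, and 31 of these were higher in shPerk cells at both days while 1 was lower at both. Of all 523, 46 were higher in shPerk cells at both days and 51 lower at both. These counts hold names with identical values, such as miR-466b-3p, miR-466c-3p and miR-466p-3p, which are among the 31. The single miRNA that was higher with ATF4 and lower at both days was miR-133a-3p. Its log2 changes were 1.21 with ATF4, -3.02 at day 0 and -3.82 at day 3. With upper-quartile factors its ATF4 change was within the limit (0.84). Against shNC day 0 in place of the vector it was -1.55, on the same side as shPerk cells. Of the 42 miRNAs lower with ATF4, 12 were lower in shPerk cells at both days, and 2 were higher at both, the arms of miR-142a.

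miR-148a-3p and miR-218-5p were among the 31. miR-148a-3p had log2 changes of 2.90 with ATF4, 3.31 in shPerk cells at day 0 and 3.43 at day 3, and stood at 15897 CPM in shPerk cells at day 3, the highest of the 6 C2C12 libraries. miR-218-5p had 2.47, 3.88 and 3.47. miR-146a-5p had 2.50, 2.69 and 3.39. In the group lower in all 3, miR-6540-5p had -4.59, -3.22 and -2.25. miR-675-3p had -1.91, -4.52 and -4.08. In these miRNAs the ATF4 and shPerk libraries lay on the same side of their controls.

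Several muscle miRNAs had other directions with ATF4 against the vector than in shPerk cells, although of the 3 given next only miR-1a-3p was past the limit with ATF4. miR-1a-3p had 5.40 with ATF4, -0.72 at day 0 and -2.14 at day 3. miR-206-3p had 0.56, -2.17 and -1.42, and miR-133b-3p 0.52, -3.29 and -3.76. Against shNC day 0 in place of the vector, the ATF4 library had 0.14 for miR-1a-3p, -2.56 for miR-206-3p and -2.24 for miR-133b-3p, so for miR-206-3p and miR-133b-3p it was then on the same side as shPerk cells. Of the 8 myogenesis-associated miRNAs, 7 were lower in shPerk cells at day 3, beside 19.5% of all miRNAs, and 0 higher. With ATF4 against the vector, 2 of them were higher. The study names these miRNAs in part for being lower in shPerk cells at day 3. The count in shPerk cells is therefore not independent evidence. miR-486a-5p was lower in all 3, with -1.12, -2.08 and -2.61. The X-linked testis cluster, 8 of 14 higher with ATF4, had 14 of 14 higher in shPerk cells at each day. Its medians there were 4.15 and 5.18, beside 1.18 with ATF4. The study names miRNAs of this cluster for their rise in shPerk cells at day 3, so these counts are not independent evidence. The Sfmbt2 cluster, 37 of 47 higher with ATF4, had 8 of 45 higher at day 0 and 16 of 47 at day 3. Among all miRNAs, 15.8% were higher in shPerk cells at day 0 and 18.8% at day 3.

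**Figure D5:**
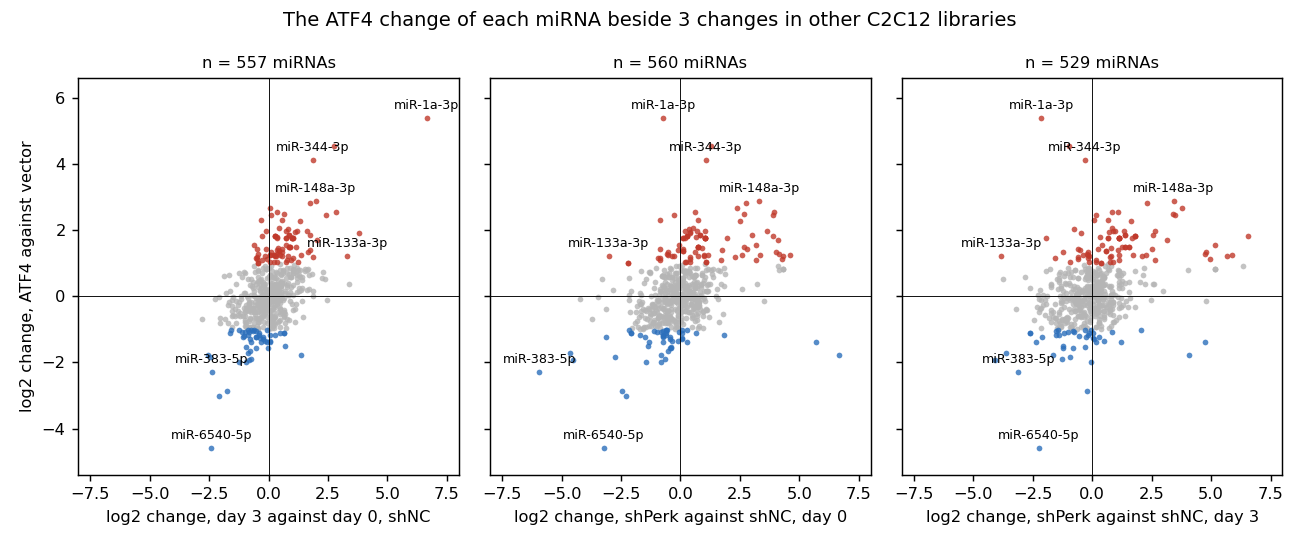
Log2 change with ATF4 against vector (y axis) and, from left to right on the x axes, from day 0 to day 3 in shNC cells, in shPerk against shNC cells at day 0, and at day 3, 1 point a miRNA (red and blue: past the limit with ATF4). miR-1a-3p lies to the right in differentiation (6.66) and to the left of 0 in shPerk cells at day 3 (-2.14), while miR-148a-3p lies to the right in all panels and miR-6540-5p to the left.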

How the data were processed

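Small RNA libraries, 1 a condition, were made by a company for the study (linker ligation, reverse transcription, PCR, gel selection) and annotated with bowtie. For the ATF4 pair the deposited values are RPM, made by the authors by scaling to the miRNA reads of each library and written as 0 when under 1 RPM. For the 4 other C2C12 libraries the authors deposited raw read counts per mature miRNA (8800977 to 11993448 in all). The submitters' processing notes name GRCm38 and mm10. The aligner version and the handling of reads with several matching miRNAs are not given in the sources used here. The fold changes, p-values and q-values deposited by the authors, and the P19 libraries, were not used.

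TMM and upper-quartile factors came from edgeR 4.0.16 (R 4.3.3). All else used Python 3.11.15 with numpy 2.4.6, pandas 2.3.3 and matplotlib 3.10.9. Counts were scaled to CPM, and values under 1 RPM or CPM were set to 1. The call was a log2 change beyond 1, with no test. Low RPM values (under 20 RPM) fell on whole steps within 0.0051 RPM for 94.9% (vector) and 94.8% (ATF4), where position alone gives 10.8% and 12.4%; 1 RPM is then about 10.6 and 12.2 reads. Not all values were whole steps, so no count test was run, the depth is an estimate and no counting interval is given. The code for the calls was run on simulated data with planted changes larger than the limit and counting noise only. That simulation holds no variation between libraries or cell lines, so it does not show how reliable the calls are here.

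The miRNAs named were the 12 largest rises and falls past the limit (mean of at least 10 RPM, above 0 in both libraries), those listed at 0 in one library and at 10 RPM or more in the other, the 10 most abundant, all members of the muscle lists, up to 4 of each other list by mean RPM, and opposite arms. miR-195a, miR-497a, miR-146b, miR-542, miR-450b, miR-466, miR-142a, miR-101c, miR-18a-3p and miR-19b-1-5p lie outside this rule and were named after their values were seen. Members and lists were chosen with earlier results of these data known. Alternatives were other scalings, pseudocounts of 1 and 5 RPM, filters, a stricter limit and another control library.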

Additional observations from a re-analysis of the deposited data

How the results depend on the processing

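The counts of miRNAs past the limit (142, with 88 higher and 54 lower) moved most with a pseudocount of 5 RPM (71, 52 and 19), at a mean of 10 RPM or more (70, 48 and 22) and with a log2 limit of 1.5 (60, 43 and 17). Upper-quartile factors gave 53 higher and 124 lower, and shNC day 0 as the control, added after the data were seen, gave 83 lower. RPM as deposited gave 81 higher and 63 lower. With identical values counted once, 77 were higher and 51 lower of 549. The control pair had 95 past the limit at a mean of at least 10 RPM. The correlation with differentiation was then 0.64 in place of 0.55. Of 48 named miRNAs past the limit, all 48 kept their call with RPM as deposited and with median-of-ratios scaling, 47 with a pseudocount of 1 RPM, 41 with 5 RPM and 42 with upper-quartile factors. With shNC day 0 as the control 26 kept it, 13 were within the limit, miR-1a-3p among them (0.14), and 9 had the other sign: miR-122-5p (1.28), miR-219a-1-3p (0.37), miR-92a-1-5p (0.53), miR-133a-3p (-1.55), miR-499-5p (-0.67), miR-101a-3p (-1.80), miR-92a-3p (0.63), miR-9-3p (-0.12) and miR-23a-5p (0.57). The cause was not tested. No paired analysis was possible because each condition has 1 library and the labels give no replicate numbers. Arms and low miRNAs of a few RPM rest on few reads.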
